A study of Mus musculus with 2 samples.

Results

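The AP-1 transcription factor genes Fos, Fosb, Fosl1, Fosl2, Jun, Junb, Jund and Atf3 were examined for recovery of their chromatin with FLAG-tagged cyclin D1. These 8 genes, chosen by name, were found among the 22350 protein-coding genes annotated on the autosomes and X of build NCBIM37, and all 8 had enough tags to be tested. Chromatin immunoprecipitation with sequencing (ChIP-seq) had given 2 libraries, both of mouse embryonic 3T3 fibroblasts, an immortal line, of genotype Ccnd1-/- and carrying FLAG-cyclin D1 from the retroviral vector MSCV. Both libraries came from these untreated cells, grown with 10% serum. They differed in the antibody, which was M2 against the FLAG tag or, as the background control, normal mouse IgG. A library of cells without the tagged protein was not analysed here, and the labels do not say whether the line was 1 clone.

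AP-1 is a dimer of basic leucine zipper proteins. FOS proteins pair only with other families such as JUN, whereas JUN proteins also pair among themselves, and ATF3 can pair with JUN proteins or with itself. Fos, Fosb, Jun, Junb and Atf3 are immediate early genes in fibroblasts, switched on within minutes of serum, growth factor or stress signals, and Ccnd1, the gene of cyclin D1, is itself a known AP-1 target. Cyclin D1 activates CDK4 and CDK6 and binds no DNA by itself, so its recovery at a site would come through other proteins.

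The anti-FLAG library held 9255188 tags on the autosomes and X and the IgG library 9308877. Since each antibody had 1 library, differences have no replicate check. Each test compares these 2 libraries, and all intervals cover counting error only. In introns 1 to 3 of Ccnd1, a check of the genotype, there was 1 anti-FLAG tag and 0 IgG tags, where the mean density of the genome would give 17.4 and 17.5. The libraries covered GC-rich DNA differently. This was seen in 500-bp windows over 10 kb from any transcription start site (TSS), leaving out windows with no tag in either library. Such windows of 60 to 62% GC had 1.87 anti-FLAG and 0.864 IgG tags on average, while those of 40 to 42% GC had 2.11 and 2.22. Results for promoters, bins, regions and gene bodies are therefore also given after a correction for GC, with the ratio seen in such distant windows. Comparisons with the flanks and mean profiles have no such correction.

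Anti-FLAG tags were higher than IgG tags by the test around 7 of the 8 AP-1 gene starts, and none of the 8 passed it once GC content was taken into account. Within 1 kb either side of the TSS the 8 genes had 17 to 30 anti-FLAG tags and 5 to 12 IgG tags, 189 and 55 in all. Fos, Fosb, Fosl2, Jun, Junb, Jund and Atf3 passed the test and Fosl1 did not (2-sided exact binomial test of tags scaled to library totals, Benjamini-Hochberg adjusted over all 10952 tested promoters, threshold 0.05). The same test called 29.5% of all tested promoters higher and 0.0913% lower, and 0 of the 8 lower. In the GC range of the 8 genes, from 52.95 to 61.95%, it called 37.3% of 4714 higher. Anti-FLAG tags exceeded scaled IgG tags at 8 of 8 starts and at 90.9% of all tested promoters. The median log2 ratio, with 1 tag added to each count, was 1.73 over the 8 genes, 0.88 over all tested promoters and 1.08 over those in this GC range. Expected from the IgG tags and GC were 104 anti-FLAG tags over the 8 genes. With this expectation 0 of 8 passed, and 1.1% of all tested promoters did. At an unadjusted p under 0.05 the GC-corrected exact test had 2 of the 8 higher, Fos and Jund, against 13.7% of all tested promoters. The GC-corrected median log2 ratio was 0.83 over the 8 genes and 0.35 over all tested promoters. Anti-FLAG tags exceeded the GC expectation at 7 of 8 starts, and at 74% of all tested promoters.

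**Figure D1:**
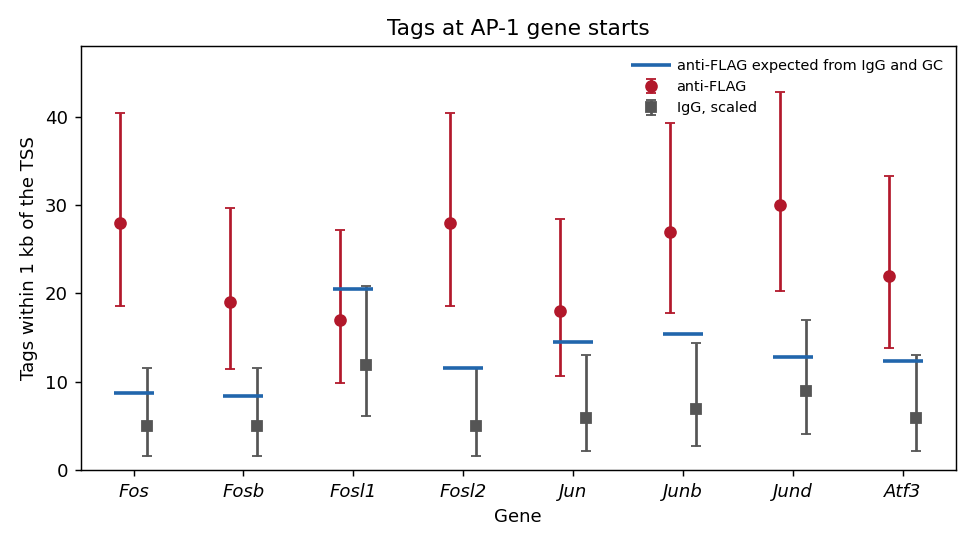
Tags within 1 kb of each TSS for the 8 AP-1 genes (x axis) in the anti-FLAG library (circles) and the IgG library scaled to the same total (squares), with 95% exact Poisson intervals as bars. Blue lines give the anti-FLAG tags expected from IgG and GC, which lie below the anti-FLAG count at every gene but Fosl1.

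Among the FOS family, Fos and Fosl2 had the same counts. Fos (ENSMUSG00000021250.7), the classical serum-induced partner of JUN, lies on the plus strand of chromosome 12 from 86814840 to 86818223. It had 28 anti-FLAG and 5 IgG tags, a ratio of 5.63 (95% exact interval 2.15 to 18.7, adjusted exact p = 0.00126). Against the GC expectation of 8.77 tags the ratio was 3.19 (1.22 to 10.6, adjusted exact p = 0.187). Its anti-FLAG tags were concentrated just before the start. The 500 bases before the TSS held 16 anti-FLAG and 0 IgG tags, and the other 500-bp bins within 1 kb held 3 to 5 and 1 to 2. This was the highest anti-FLAG bin of the 80 within 20 kb either side. Fos was also the only one of the 8 with the 20 tags, in both libraries together, that the test asks for within 500 bp of the TSS. It had 20 against 1 (log2 ratio 3.40, adjusted exact p = 1.94e-04). After the GC correction its log2 ratio was 2.20 (adjusted exact p = 0.0703). At this width 62.6% of the 3013 tested promoters were called higher before the GC correction. Junb, with 17 against 0, had too few tags to be tested there.

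The stretch of Fos under this bin is shown because it holds the well-studied serum response element, beside the stretch before Fosb, which holds another such box. Capitals mark the CArG box of serum response factor, the cyclic AMP response core TGACG, the GC box GGGCGG and the TATA box TATAAA, or their reverse complements, as a search of both strands found them. The Fos stretch covers chr12:86814515-86814814 on the plus strand, from position -325 to -26, where position -1 is the base before the TSS. It held 10 anti-FLAG and 0 IgG tags. The Fosb stretch covers chr7:19895395-19895694 on the minus strand, from -300 to -1, with 3 and 0 tags.
Fos: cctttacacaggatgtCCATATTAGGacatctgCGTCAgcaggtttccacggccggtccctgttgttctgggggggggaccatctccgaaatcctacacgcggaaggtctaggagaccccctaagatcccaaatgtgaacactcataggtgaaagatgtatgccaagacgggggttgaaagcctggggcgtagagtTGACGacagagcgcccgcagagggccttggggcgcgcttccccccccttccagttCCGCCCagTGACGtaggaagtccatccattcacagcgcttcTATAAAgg
Fosb: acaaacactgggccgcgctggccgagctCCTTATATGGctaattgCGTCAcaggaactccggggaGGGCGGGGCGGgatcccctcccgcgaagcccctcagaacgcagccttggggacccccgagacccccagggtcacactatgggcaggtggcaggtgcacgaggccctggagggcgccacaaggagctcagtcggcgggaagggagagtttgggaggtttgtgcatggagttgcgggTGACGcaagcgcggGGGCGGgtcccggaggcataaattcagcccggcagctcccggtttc

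The CArG box began at position -309 in Fos and at -272 in Fosb. No other of the 8 genes had one in the 500 bases before the TSS, where 2.71% of all 22350 promoters did. TATAAA began at -33 in Fos and at -30 in Junb and was absent from the other 250-base windows of the group, against a share of 12.3% of all promoters. TGACG, the core of the cyclic AMP response element, was found within 250 bases in Fos, Fosb, Fosl1 and Junb (19.4% of all promoters), and the full TGACGTCA, which contains it, in 0 of 8 (1.91%). The AP-1 site TGAGTCA or its reverse complement was found in 0 of 8 (3.86%). GGGCGG, the GC box, was found in 6 of 8, all but Junb and Jund, against 39.6% of all promoters. The E2F sequence TTTGGCGC was found in Fosl2, where 0.761% of all promoters had it or TTTCGCGC. All 8 genes are among the tested promoters, whose shares in 250 bases differed. They were 52.4% for GGGCGG, 26.6% for TGACG, 8.06% for TATAAA, 2.81% for TGACGTCA, 3.15% for the AP-1 site and 1.2% for E2F. A match of letters is a description and not a measured site.

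Fosb (ENSMUSG00000003545.2), another early responder of the family, is a minus-strand gene of chromosome 7, from 19888070 to 19895394. It had 19 anti-FLAG and 5 IgG tags around its TSS (a 3.82-fold ratio with exact 95% limits 1.38 and 13.1, adjusted exact p = 0.0205). The tags were spread over the window, with 5, 4, 7 and 3 in successive 500-bp bins in the direction of transcription, where IgG had 4, 0, 0 and 1. With the GC correction the ratio was 2.26 (0.817 to 7.75, adjusted exact p = 0.515).

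Fosl2 (ENSMUSG00000029135.9), which encodes FRA-2, lies on the plus strand of chromosome 5 from 32438845 to 32460204. Its 28 anti-FLAG tags, against 5 IgG tags, sat further out than those of Fos. The bin from 1000 to 500 bases before the TSS had 11 and 0, and the 500 bases before the TSS had 4 and 0. The promoter passed before the GC correction (adjusted exact p = 0.00126) and not after it, with a ratio of 2.43 (95% exact interval 0.927 to 8.06, adjusted exact p = 0.363). From 1 kb past the TSS to the gene end, 20.4 kb, it had 216 anti-FLAG and 105 IgG tags.

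Fosl1 (ENSMUSG00000024912.5), which encodes FRA-1, a FOS protein of growing and invasive cells, lies on the plus strand of chromosome 19 from 5447703 to 5455945. It had the fewest anti-FLAG tags of the 8 and the most IgG tags, 17 and 12 (a 1.42-fold ratio with exact 95% limits 0.641 and 3.27, adjusted exact p = 0.482). The GC expectation was 20.5 tags, above the count. Of its IgG tags 8 lay in the bin from 1000 to 500 bases before the TSS, where the anti-FLAG library had 7. Its stretch before the TSS, at chr19:5447453-5447702 on the plus strand, is shown for contrast, with capitals as above. It carries GGGCGG and the reverse complement of TGACG, and it held 3 anti-FLAG and 0 IgG tags.
Fosl1: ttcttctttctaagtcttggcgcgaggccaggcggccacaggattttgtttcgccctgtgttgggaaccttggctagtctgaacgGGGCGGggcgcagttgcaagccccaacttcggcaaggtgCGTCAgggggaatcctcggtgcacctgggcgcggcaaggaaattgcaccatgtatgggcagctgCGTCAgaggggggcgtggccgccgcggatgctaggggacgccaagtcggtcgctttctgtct

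The JUN family genes are known as genes without introns, and their highest bins lay before the start at Jun and after it at Jund. Jun (ENSMUSG00000052684.3), the gene of c-JUN, is a minus-strand gene of chromosome 4, from 94715725 to 94718913. It had 18 anti-FLAG and 6 IgG tags, a ratio of 3.02 (exact 95% limits 1.15 and 9.29, adjusted exact p = 0.0486), the nearest to the threshold of the 7. With the smaller tail doubled in the exact test, an alternative added after the data were seen, Jun did not pass (adjusted exact p = 0.0731). It also failed without shifting tags (adjusted exact p = 0.0876), with a minimum of 10 tags (0.0714) or none (0.0842), and when every annotated transcript start was tested (0.0523). Against GC its ratio was 1.24 (0.473 to 3.83, adjusted exact p = 0.985). Of its anti-FLAG tags in the window 14 were on the minus and 4 on the plus strand.

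The highest anti-FLAG bin of the Jun locus lay outside the 1-kb window, from 1500 to 1000 bases before the TSS, with 13 anti-FLAG and 2 IgG tags (adjusted exact p = 0.0873). The centre of this bin lies in an intron of BC042782, annotated as a processed transcript. The 500 bases before the Jun TSS had 3 and 1. The last 250 of them, at chr4:94718914-94719163 on the minus strand, are shown beside those of Junb, at chr8:87502618-87502867 on the minus strand, because both carry CCAAT at nearly the same position while their tag counts were 2 and 5, with 1 and 0 IgG tags. Capitals mark the GC box, the box CCAAT, the core TGACG and the TATA box, or their reverse complements, and, in Jun, the variant AP-1 site TGACATCA known from its autoregulation, a motif added after the other motifs had been fixed (2.7% of all promoters).
Jun: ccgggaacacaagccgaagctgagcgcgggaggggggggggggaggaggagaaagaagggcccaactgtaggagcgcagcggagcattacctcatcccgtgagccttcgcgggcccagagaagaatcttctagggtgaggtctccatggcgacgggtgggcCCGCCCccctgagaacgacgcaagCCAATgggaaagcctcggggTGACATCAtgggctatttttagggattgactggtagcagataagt
Junb: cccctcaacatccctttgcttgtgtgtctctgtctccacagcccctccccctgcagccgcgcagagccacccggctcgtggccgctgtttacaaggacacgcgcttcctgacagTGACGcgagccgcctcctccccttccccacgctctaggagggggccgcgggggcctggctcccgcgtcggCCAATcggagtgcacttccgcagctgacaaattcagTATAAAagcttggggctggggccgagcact

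CCAAT began at position -65 in Jun and -66 in Junb, and none of the other 6 genes had it in this window, against 35% of all promoters. Junb (ENSMUSG00000052837.4), whose protein often restrains c-JUN, is a minus-strand gene of chromosome 8, from 87500811 to 87502617. It had 27 anti-FLAG and 7 IgG tags (a 3.88-fold ratio with exact 95% limits 1.65 and 10.6, adjusted exact p = 0.00563), and 1.75 against GC (0.745 to 4.77, adjusted exact p = 0.590). Within 500 bp of the TSS it had 17 anti-FLAG and 0 IgG tags, and all 7 IgG tags lay further out.

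Jund (ENSMUSG00000071076.4), the member of the family that is expressed in resting cells, lies on the plus strand of chromosome 8 from 73221638 to 73224515. It had the most anti-FLAG tags of the 8, 30 against 9 IgG tags (a 3.35-fold ratio with exact 95% limits 1.55 and 8.03, adjusted exact p = 0.00681, and 2.34 after the GC correction, 1.08 to 5.60, adjusted exact p = 0.249). More of them lay after the annotated start than before it. The 500 bases before the TSS had 3 anti-FLAG and 3 IgG tags, the first 500 after it 10 and 2, and the next 13 and 2. The 250 bases before this start were 47.6% GC, where the same windows of Fosl1, Fosl2, Jun, Junb and Atf3 had 61.2 to 65.6%. A shorter transcript, Jund-202, starts at position 73222857, and within 1 kb of that start there were 33 anti-FLAG and 7 IgG tags (adjusted exact p = 0.00105 over all transcript starts, or 0.571 after correcting for GC). TGACGTCA, absent before all 8 gene starts, was found in the untranslated part of the longer transcript, 996 bases past the gene start.

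Atf3 (ENSMUSG00000026628.8), a stress-induced gene whose protein often represses transcription, is a minus-strand gene of chromosome 1, from 192994175 to 193007219. It had 22 anti-FLAG and 6 IgG tags (a 3.69-fold ratio with exact 95% limits 1.45 and 11.1, adjusted exact p = 0.0143), and 1.78 against GC (0.700 to 5.37, adjusted exact p = 0.622). The highest bin was in the first intron, from 500 to 1000 bases past the TSS, with 10 anti-FLAG and 1 IgG tag. The 500 bases before the TSS had 7 and 1. Its 250 bases before the TSS matched GGGCGG or its reverse complement at 5 positions, the most of the 8.

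**Figure D2:**
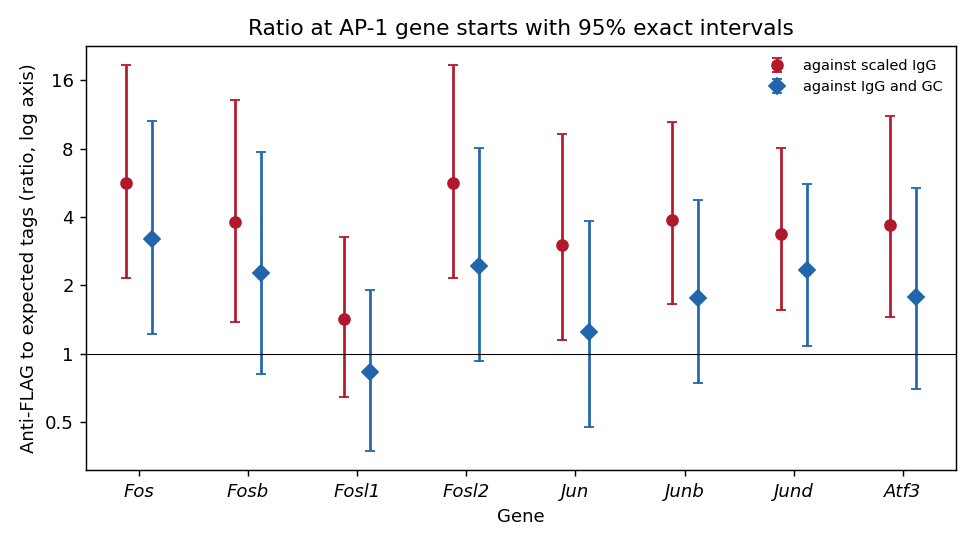
Ratio of anti-FLAG tags within 1 kb of the TSS to the tags expected from scaled IgG alone (circles) and from IgG and GC (diamonds) for the 8 genes, on a log axis with 95% exact intervals. All 8 ratios fall with the GC expectation, and the intervals of 6 genes then include 1.

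In order of the ratio, Fos and Fosl2 came first, followed by Junb, Fosb, Atf3, Jund, Jun and Fosl1. The exact intervals of all neighbours in this order overlapped, and so did those of the first and the last, 2.15 to 18.7 and 0.641 to 3.27. Overlap of intervals is not a test of difference, and the genes were not tested against each other. The order of the 8 genes is therefore a description only. No other protein-coding TSS lay within 2 kb of any of the 8. Noncoding genes were not part of this check. The processed transcript BC042782 overlaps the start of Jun, so tags there cannot be assigned to Jun alone. Of all tested promoters, 2.61% had a higher log2 ratio than Fos and Fosl2 and 72.3% had a higher one than Fosl1. After the GC correction 3.92% were above Fos, 12.2% above Fosl2 and 85.7% above Fosl1.

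**Figure D3:**
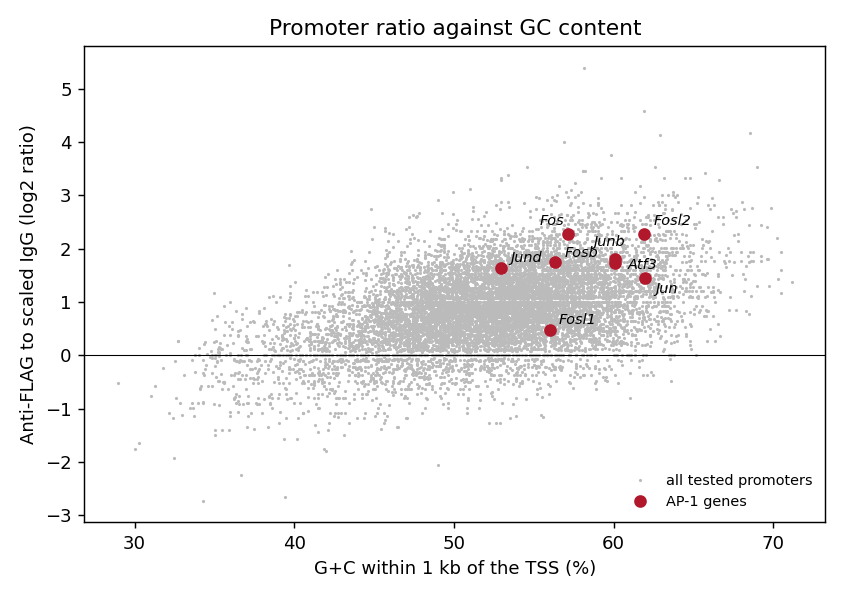
Log2 ratio of anti-FLAG to scaled IgG tags (y axis, 1 tag added to each count) against GC content within 1 kb of the TSS (x axis, percent) for all 10952 tested promoters (grey) and the 8 AP-1 genes (red). Ratios rise with GC over all promoters, and the 8 genes sit at 52.95 to 61.95% GC with log2 ratios from 0.48 for Fosl1 to 2.28 for Fos and Fosl2.

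At most of these starts the anti-FLAG density was above, and the IgG density below, that of the surroundings. Set against the flanks from 5 to 20 kb either side, anti-FLAG tags per kb were higher within 1 kb of the TSS at 7 of 8 genes, by a median of 1.96-fold over the 8, and 95.5% of tested promoters showed this direction, with a median of 2.11-fold. IgG tags per kb were lower near the TSS than in the flanks at 7 of 8 genes, with a median ratio of 0.731 over the 8. Each of these ratios rested on 5 to 12 IgG tags near the TSS. Only at Fos did the 95% exact interval lie below 1, and the intervals of all the others included 1. Over all tested promoters 30.4% were lower, and the median ratio was 1.26. Fos had an IgG ratio with an interval below 1 and an anti-FLAG ratio with an interval that included 1. Its anti-FLAG level was 14.0 tags per kb near the TSS and 9.50 in the flanks, 1.47-fold (95% exact interval 0.962 to 2.18), while its IgG level, with 5 tags near the TSS and 6.57 per kb in the flanks, had a ratio of 0.381 (0.122 to 0.903). Jund and Atf3 had the largest rise in anti-FLAG tags, 2.98-fold (1.94 to 4.43) and 2.77-fold (1.67 to 4.39), with IgG ratios of 1.20 and 0.756. At Fosl1 both were lower near the TSS, with ratios of 0.704 (0.406 to 1.14) for anti-FLAG and 0.753 (0.384 to 1.34) for IgG.

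In the mean of the 8 genes the raised anti-FLAG level extended beyond the promoter windows, but not at each gene. From 3 to 5 kb Fos had 20 anti-FLAG and 29 IgG tags and Jun 22 and 22. From 5 to 20 kb Atf3 had 119 and 119. The other genes had more anti-FLAG than IgG tags in these steps. Some of these surroundings hold starts of other genes, such as Hook2 near Junb and Ccdc85b near Fosl1. Averaged over the 8 genes, anti-FLAG tags stood at 12.6 per kb within 500 bp of the TSS and 11 from 0.5 to 1 kb. Further out they stood at 10.4 from 1 to 3 kb, 8.50 from 3 to 5 kb and 6.97 from 5 to 20 kb. Over all tested promoters the values were 11.8, 9.43, 6.24, 5.28 and 4.96. IgG tags of the 8 genes went from 2.25 per kb within 500 bp to 4.63, 5.16, 5.78 and 4.86 in the same steps outward, and those of all tested promoters from 4.56 to 6.78, 5.42, 4.72 and 4.39. The genome-wide means were 3.51 anti-FLAG and 3.53 IgG tags per kb. The flanks of Fosl1 (12.1 anti-FLAG and 7.97 IgG tags per kb) and Fos (9.50 and 6.57) stood above these means in both libraries, and those of Atf3 (3.97 and 3.97) and Jun (3.93 and 3.53) were near them.

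**Figure D4:**
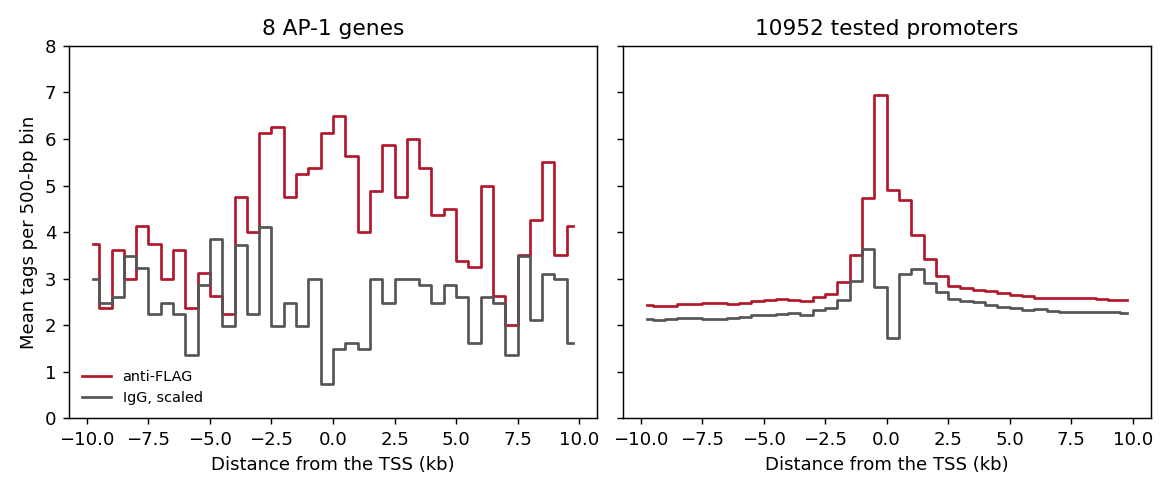
Mean tags per 500-bp bin from 10 kb before to 10 kb after the TSS, in the direction of transcription, for the 8 AP-1 genes (left) and all 10952 tested promoters (right), anti-FLAG in red and IgG scaled to the same total in grey. Over the 8 genes anti-FLAG tags form a broad rise and IgG tags reach 0.75 per bin just before the TSS, while over all tested promoters anti-FLAG tags peak at 6.95 per bin there.

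Tested against its own flanks by library, which removes the scaling of whole libraries but not the GC difference, the anti-FLAG share at the TSS was higher for Fos (log2 ratio of ratios 1.74, adjusted exact p = 0.0347) and Atf3 (1.72, adjusted exact p = 0.0446), 2 of the 8 (Fisher's exact test, adjusted over all tested promoters). This test called 11.3% of all tested promoters higher. Fosl2 had 1.60 (adjusted exact p = 0.0575), Fosb 1.37 (0.133), Jun 1.29 (0.174), Jund 1.20 (0.108), Junb 0.88 (0.309) and Fosl1 -0.13 (0.937). The median was 1.33 over the 8 genes and 0.70 over all tested promoters. Atf3 did not pass with flanks of 2 to 10 kb (adjusted exact p = 0.0853) or with tags not shifted (0.0574). Within 2.5 kb of the TSS Atf3 did not pass (adjusted exact p = 0.138) and Jun did (0.0170).

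Along the loci, single 500-bp bins mostly held too few tags to test. Of the 640 bins within 20 kb of the 8 starts, 112 had at least 10 tags in both libraries together. Anti-FLAG tags were higher in 6 of these and lower in 0, where the same test called 3.03% of 106533 such bins around all protein-coding starts, bins near several starts counted for each. At an unadjusted exact p under 0.05, 28 (25%) were higher and 0 lower, against 14.0% and 1.02% of all tested bins. With the GC correction 0 of the 112 passed, against 0.206% of all tested bins. At an unadjusted exact p under 0.05, 9 (8.04%) were then higher and 2 (1.79%) lower, against 7.58% and 1.20% of all tested bins. Within 1 kb of a start 2 of the 6 were found, the bins before Fos (adjusted exact p = 0.00490) and Fosl2 (0.0266) given above. The others lay away from the starts. Jund had 15 against 1 tags from 2.5 to 3 kb past its start, over the untranslated 3' end of the gene and with its centre 408 bp from where Gm11175 starts (adjusted exact p = 0.0207), and 13 against 0 in the bin from -15.5 to -15 kb (0.0143). The Junb locus had 19 against 3 from -12 to -11.5 kb (0.0266), where Hook2, a microtubule linker gene, starts 127 bp from the bin centre. The Fosl1 locus had 15 against 2 from 10 to 10.5 kb past the start (0.0436), and Ccdc85b starts 403 bp from the bin centre. These bins near the starts of Gm11175, Hook2 and Ccdc85b cannot be assigned to Jund, Junb or Fosl1 alone.

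**Figure D5:**
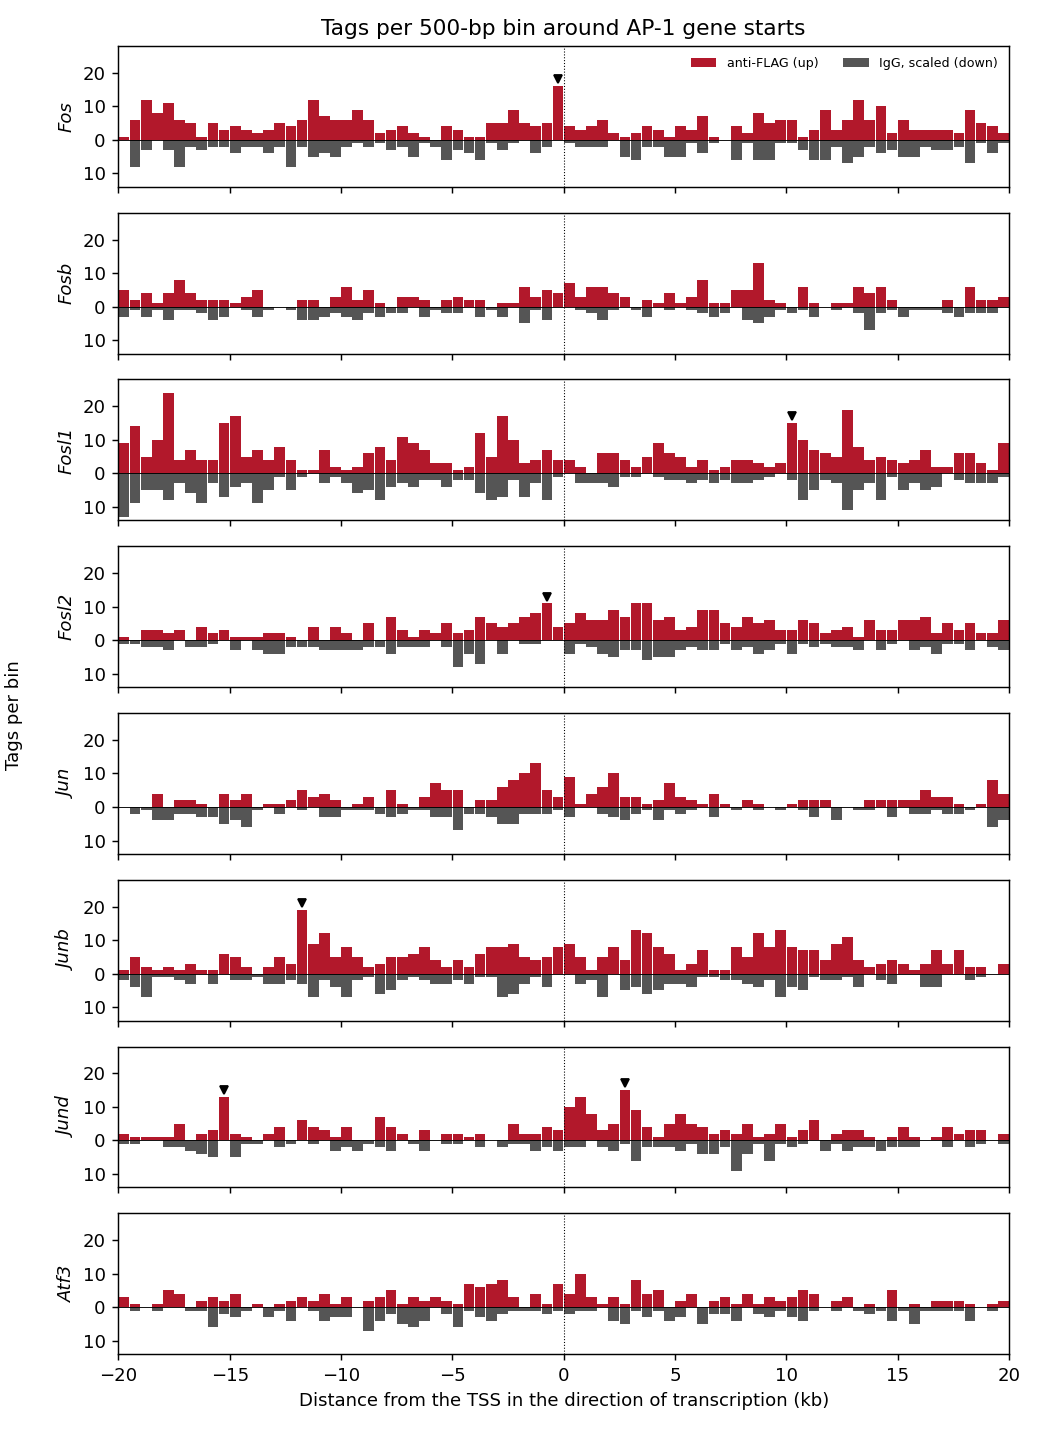
Tags per 500-bp bin from 20 kb before to 20 kb after the TSS (dotted line) of each AP-1 gene, in the direction of transcription, with anti-FLAG tags drawn upward and IgG tags, scaled to the same total, downward. Triangles mark the 6 bins with more anti-FLAG tags (adjusted exact p under 0.05), of which those of Fos and Fosl2 touch the 1-kb window.

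A search for regions of excess without reference to gene starts gave 8 regions within 20 kb of the 8 starts, at 5 genes (merged 500-bp windows, exact one-sided Poisson p under 1e-05). These Poisson p values are not adjusted for the number of windows searched. Such a region lay within 20 kb of 20.2% of all protein-coding genes. On the autosomes and X the search gave 5964 regions, and 165 with the libraries swapped. With the GC correction these were 3982 and 92. Regions overlapped the 1-kb windows of Fos, Jun, Junb and Jund, 4 of 8, against 7.42% of all genes. The shares given for regions cover all genes, also those with too few promoter tags to be tested. All 8 genes here were tested, and the shares among tested promoters alone were not determined. At Fos the region ran from 86814251 to 86815000, across the start, with 14 anti-FLAG and 0 IgG tags in its strongest window (exact Poisson p = 3.92e-07). At Junb it ran from 87502501 to 87503000, also across the start, with 14 and 0 (exact Poisson p = 5.50e-06). At Jun it lay upstream, from 94719751 to 94720500, with 15 and 2 (exact Poisson p = 1.06e-07), and at Jund it lay downstream, from 73222251 to 73223000, with 16 and 1 (p = 3.13e-09). The Jun region spans positions -1587 to -838 from the gene start, and the Jund region 613 to 1362, across untranslated and coding sequence.

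The other regions were a second one of Jund from 73224251 to 73224750 (18 and 1 tags, exact Poisson p = 2.67e-10), another at positions -15637 to -15138 from its start (15 and 2, p = 3.82e-08), that of Junb at Hook2 (17 and 2, p = 1.15e-07) and one at positions -17952 to -17453 from Fosl1 (23 and 5, p = 2.75e-07). With the GC correction 1 of the 8 regions was found again, the one at the 3' end of Jund (3.65-fold over the expectation, exact Poisson p = 4.58e-06). A GC-corrected region lay within 20 kb of 11.2% of all genes, and of 1 of the 8 here. Such a region overlapped the 1-kb window of 2.88% of all genes, and of 0 of the 8. The centre of the region at the 3' end of Jund was 521 bp from the TSS of Gm11175, another gene model, so it cannot be assigned to Jund alone. The regions before Fosl1 and Jund each held 1 match of the AP-1 site, on either strand, at positions -17653 and -15408 from those starts. That of Junb at Hook2 held a CArG box at position -11675. The share of all regions with such matches was not determined, so these matches are a description only.

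In the bodies of the genes, from 1 kb past the TSS to the gene end, anti-FLAG tags were higher for Fosl2 (216 against 105, log2 ratio 1.04, adjusted exact p = 3.74e-08), Jund (23 against 6, 1.79, adjusted exact p = 0.0141) and Fosl1 (57 against 31, 0.87, adjusted exact p = 0.0379), 3 of the 7 with enough tags, where 11.8% of all tested genes were called. Fosl1 passed in its body and not at its start, and the difference between the 2 was not tested. The body of Jund also holds coding sequence of Gm11175, and that of Fosl1 holds untranslated sequence of Ccdc85b. Tags in these bodies cannot be assigned to Jund or Fosl1 alone. Fosb had 40 against 20 tags (adjusted exact p = 0.0574, and 0.0215 when scaled by bins of low count), Jun 23 against 10 (0.107), Atf3 64 against 51 (0.458) and Fos 15 against 15 (1.00). Junb, with 3 against 7, had too few tags to test. With the GC correction Fosl2 passed (log2 ratio 0.68, adjusted exact p = 0.0136), 1 of 7, against 0.624% of all tested genes. Fosl1 (adjusted exact p = 0.608) and Jund, whose log2 ratio was then -0.02 (adjusted exact p = 1.00), did not. At the Fosl2 start the GC-corrected test did not pass, with 28 against 5 tags, although the GC-corrected log2 ratio there was 1.07. The difference between the Fosl2 start and body was not tested.

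The genes that act with AP-1 were described by 5 lists, of which 1 gene was not matched to the annotation. Of the partner and other basic leucine zipper genes 15 of 20 tested promoters were higher, with a median log2 ratio of 1.58 and 0.83 after the GC correction. Creb1, a cyclic AMP response factor that also appears in the list around serum response factor, had 30 anti-FLAG and 3 IgG tags (adjusted exact p = 1.06e-04, or 0.231 after correcting for GC). Nfe2l2, the gene of NRF2 of the oxidative stress response, had 21 and 2 (adjusted exact p = 0.00125). Of the kinases and phosphatases upstream of AP-1 6 of 11 were higher (median 1.72, and 0.58 after the GC correction), among them Mapk3, the gene of ERK1, with 21 and 1 (adjusted exact p = 3.56e-04, and 0.0763) and Dusp6, an ERK phosphatase gene, with 35 and 10 (0.00276, and 0.284).

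Of the genes around serum response factor and its ternary complex factors 5 of 8 were higher (median 1.39, and 0.54 after the GC correction), with Mkl2, a coactivator of serum response factor, at 20 and 2 tags (adjusted exact p = 0.00173). Of the known AP-1 targets 9 of 20 were higher (median 1.13, and 0.59), with Lgals1, the gene of galectin-1, at 32 and 5 (adjusted exact p = 3.12e-04, or 0.0882 after correcting for GC) and Vim, the gene of vimentin, at 33 and 8 (0.00173, and 0.184). Of the binders and modifiers of FOS and JUN proteins 3 of 9 were higher (median 0.82, and 0.17), with Rfwd2, the gene of the ubiquitin ligase COP1, at 28 and 9 and Smad3 at 22 and 6 tags. The counts in all 5 lists are to be read against 29.5% of all tested promoters, and 37.3% of those in the GC range of the 8 genes. Median GC was 50.8% in the list of AP-1 targets and 56.25 to 58.65% in the other lists, against 52.65% over all tested promoters. With the GC correction 0 of the listed genes passed. As a description over 20 bins of 500 bp, the genes whose anti-FLAG excess within 5 kb was most like the mean of the 8 were Sdhaf1 (Pearson r = 0.848), Jagn1 (0.847), Gm1661 (0.820), Hmgb2 (0.819) and Manf (0.811), picked out of 13944 genes with at least 40 anti-FLAG tags there. These profiles come from the same 2 libraries and hold few tags per bin.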

How the data were processed

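Cells were fixed in 1% formaldehyde for 15 min and chromatin sheared to 300 to 500 bp on average, per the labels' protocols. The deposited files list mapped tags of 36 bp with position and strand, 0 of which share both within a library. Their score column, a deposited value, is 512 throughout and was not used. The sources used here do not give aligner, build or filters. Tag positions fitted the chromosome lengths of NCBIM37 (4 anti-FLAG and 2 IgG tags lay past an end), whose GENCODE annotation was used.

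Tags on the 19 autosomes and X were moved 72 bp downstream and counted within 1 kb of each gene's 5' end. Where the 2 libraries summed to 20 tags or more, a 2-sided exact binomial test conditional on the sum was made, Benjamini-Hochberg adjusted across all genes, IgG tags scaled by 0.994. For the GC correction the expected ratio was summed over 500-bp pieces from windows over 10 kb from every TSS, in strata of 2 GC points. Pieces of higher GC than the top stratum, 66 to 68%, took its rates. These rest on 297 windows with 766 anti-FLAG and 221 IgG tags. Windows with no tag in either library were left out. Flanks (5 to 20 kb either side), 500-bp bins to 20 kb, gene bodies and merged regions (500-bp windows, steps of 250 bp, at least 10 tags, at least 2-fold, p under 1e-05) were treated likewise over all genes, with Fisher's exact test for flanks and a one-sided Poisson test for regions. Intervals are exact at 95%. Named genes were the 8 members, per list the 2 of smallest p, and the 5 of most like profile. Members and lists were chosen with earlier results of these data known. Alternatives changed scaling, widths, minimum, shift, pseudocount, GC strata, flanks, bins, thresholds and gene starts, and the doubled tail and GC-corrected transcript starts were added later. Python 3.11.15, NumPy 2.4.6, SciPy 1.17.1, pandas 2.3.3 and Matplotlib 3.10.9 were used. Sequences were read from the NCBIM37 genome.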

Additional observations from a re-analysis of the deposited data

How the results depend on the processing

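Of all protein-coding promoters, 3226 of 10952 tested were higher with anti-FLAG (29.5%), 1886 of 3013 (62.6%) with 500 bp and 2131 of 20308 (10.5%) with 2.5 kb either side of the TSS, and 121 with the GC correction. Of the 8 AP-1 promoters 7 were higher, 1 with 500 bp (where 1 had enough tags) and 0 with the GC correction. The count was 6 or 7 under the other alternatives for this test, with Jun the gene that changed. After the GC correction it was 0 under every alternative run. Against own flanks the count of 2 became 1 with 500 bp, with tags not shifted and with flanks of 2 to 10 kb. The 6 bins became 3 in bins of 250 bp, 3 with at least 20 tags and 0 with the GC correction. The 8 regions became 3 at p under 1e-07 and 1 with the GC correction, and 7 to 11 under the other alternatives. The 3 gene bodies became 1 with the GC correction, 2 when counted from 2 kb past the TSS, and 4 with scaling by bins of low count or with tags not shifted, where Fosb passed. Changes of sign occurred with the GC correction in the Fosl1 promoter (-0.31) and the bodies of Fos (-0.61) and Jund (-0.0157), and with tags not shifted in Fosl1 against its flanks (0.0286). The cause was not tested beyond these alternatives. No paired analysis was possible because there was 1 library per antibody, and no library could be left out. With 17 to 30 anti-FLAG tags per promoter, depth limits every ratio to the wide intervals given.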
